A study of Homo sapiens with 8 samples.

Results

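The genes described here encode the 3 TGFβ ligands (TGFB1, TGFB2 and TGFB3), the 4 latent TGFβ binding proteins (LTBP1, LTBP2, LTBP3 and LTBP4) and the TGFβ-induced matrix protein TGFBI. Their probes were all non-control spots of the promoter arrays whose gene name, or whose annotated nearest transcription start, was one of these 8 genes. This gave 244 of 474392 probes and 8 of 17633 genes. One TGFBI probe, 894 bp downstream of the start, was marked as an outlier by the scanner software, so that 243 probes were tested.

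TGFβ is secreted as a latent complex in which the mature cytokine stays bound to its own propeptide. LTBP1, LTBP3 and LTBP4 are covalently attached to that propeptide and anchor the complex in the extracellular matrix, whereas LTBP2 is a matrix protein of the same family that does not bind latent TGFβ. Released ligand signals through receptor kinases that phosphorylate SMAD2 and SMAD3, which then bind DNA with SMAD4. TGFBI is a secreted adhesion protein and a classical TGFβ target in epithelial cells.

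The arrays compared DNA immunoprecipitated with a SMAD3 antibody (SMAD3 IP, Cy5) with DNA from a mock IP with an anti-FLAG antibody (Cy3) in A549 cells, an established lung adenocarcinoma line with features of alveolar epithelium. Cells were either untreated or treated with 2 ng/ml TGFβ1 for up to 2 h. There were 2 replicates of each kind, and the DNA of every replicate went on a pair of slides with different probes, which made 8 arrays. By the study's methods, the DNA was ligated to linkers and amplified by PCR before labelling. Fold differences below are thus of signal and need not equal differences in the amount of precipitated DNA. The time is the upper limit in the labels; the study's text also names a shorter one for these arrays and more array replicates than the 2 used here, so that the exact time is not settled. The same line was grown with serum and, by the study's methods, kept without serum before the experiments. The labels call the replicates biological without saying how they were separated, so that p-values measure the spread between these replicates only. The measurement was a log2 ratio, SMAD3 IP signal over mock IP signal, centred on the median of each array. A value of 0 is thus the ratio of the median probe, and 1 is 2 times that ratio. Before centring, the array medians ran from 0.237 to 0.725. Below, enrichment, or SMAD3 IP DNA exceeding mock IP DNA, means a ratio above that of the median probe. More mock IP DNA means a ratio below it. TGFB2, LTBP1 and TGFBI lie on slide 1 (chromosomes 1, 2 and 5). LTBP3, LTBP2, TGFB3, LTBP4 and TGFB1 lie on slide 2 (chromosomes 11, 14, 14, 19 and 19).

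On each array, between 38.7% and 51.5% of the probes had both signals well above background by the scanner software, and 34% of the tested probes did so on all 4 arrays of their slide. The 8 genes had 98 such probes, which are called measured throughout below. At the others at least 1 signal is only an upper limit. Over all probes of slide 1, the log2 ratio correlated at r = 0.825 between the unstimulated replicates and at r = 0.931 between the stimulated replicates, but at r = 0.194 to 0.217 between conditions. The mock IP signal itself correlated at r = 0.919 and 0.982 within conditions and at r = 0.687 to 0.712 between them. On slide 2 the ratio correlated at r = 0.949 and 0.908 within conditions and at r = 0.206 to 0.234 between them, and the mock IP signal at r = 0.987 and 0.968 within and at r = 0.682 to 0.712 between. The signal of each channel is given beside the ratio at some of the probes below. Where only 1 channel is given, the other may have changed too.

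Short sequences upstream of 4 genes are shown first, because the window within 250 bp of the start fell after stimulation at these 4 genes. It did not pass the threshold at TGFB1, TGFB3 and LTBP2, and LTBP4 had too few probes there to be tested. They are the 250 bases before the first start that RefSeq gives for each gene, in GRCh38.p14. The genome build of the probes is not named in the scanner files, so that probes are located by their annotated distance to the start only (negative upstream), and the array's start need not be the same base. Capitals mark CAGAC or its reverse complement GTCTG, the sequence in which SMAD3 binding elements are usually found.
TGFB2, chr1:218345086-218345335, plus strand: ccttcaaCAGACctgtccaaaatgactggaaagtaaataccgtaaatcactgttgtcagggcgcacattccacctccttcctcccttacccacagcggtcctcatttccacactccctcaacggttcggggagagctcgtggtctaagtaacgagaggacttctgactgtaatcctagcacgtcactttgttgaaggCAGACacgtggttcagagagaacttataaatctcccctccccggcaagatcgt
LTBP1, chr2:32946703-32946952, plus strand: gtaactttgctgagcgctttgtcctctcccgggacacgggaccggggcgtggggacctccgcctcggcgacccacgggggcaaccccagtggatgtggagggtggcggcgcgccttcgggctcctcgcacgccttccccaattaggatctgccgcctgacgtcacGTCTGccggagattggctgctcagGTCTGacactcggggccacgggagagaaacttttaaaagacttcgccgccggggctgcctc
LTBP3, chr11:65558360-65558609, minus strand: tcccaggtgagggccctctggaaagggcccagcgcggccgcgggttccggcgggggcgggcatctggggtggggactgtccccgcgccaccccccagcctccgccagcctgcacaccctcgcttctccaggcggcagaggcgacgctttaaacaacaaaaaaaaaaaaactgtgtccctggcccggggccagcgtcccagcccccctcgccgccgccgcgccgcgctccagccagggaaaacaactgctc
TGFBI, chr5:136028738-136028987, plus strand: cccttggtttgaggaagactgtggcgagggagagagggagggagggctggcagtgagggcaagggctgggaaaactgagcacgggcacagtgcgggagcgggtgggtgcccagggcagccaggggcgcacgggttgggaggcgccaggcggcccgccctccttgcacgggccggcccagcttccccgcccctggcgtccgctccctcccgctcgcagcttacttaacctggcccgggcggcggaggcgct

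TGFB2 and LTBP1 each held 2 copies of the motif in these 250 bases, and LTBP3 and TGFBI held none. TGFB3 held 2 copies, LTBP4 held 1, and TGFB1 and LTBP2 held none before their first starts. Before later RefSeq starts, LTBP1 held 1 copy in each of chr2:33134119-33134368 and chr2:33134346-33134595, and TGFB3, LTBP3 and LTBP4 held none. Of 35116 RefSeq promoter windows of the same length, 38% held at least 1 copy on either strand, so that the motif is common and its presence is a description only. The study also scanned for a GC-rich SMAD3 motif. The GC-rich sequence GGCGC, on either strand and not marked above, occurred 4 times in TGFBI, 2 in LTBP1 and LTBP3, and 1 in TGFB2. Before their first starts LTBP2 held 4 copies, TGFB1 1, and TGFB3 and LTBP4 none. The later starts had 7 copies in LTBP4, 2 in LTBP3, and none in LTBP1 and TGFB3. At least 1 copy of GGCGC lay in 44.5% of all these windows. G and C made up 50.4% of the TGFB2 sequence, 66.4% of LTBP1, 70.4% of LTBP3 and 72.8% of TGFBI.

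Across the 8 genes, 35 of 243 tested probes had a higher ratio after TGFβ1 (14.4%) and 40 a lower one (16.5%), by limma with Benjamini-Hochberg adjustment over all probes. Over all 472988 tested probes the shares were 10.5% and 12.4%. SMAD3 IP exceeded mock IP at 27 of the 243 probes in unstimulated cells and at 19 after stimulation, against 8.92% and 8.22% of all probes, and 13 probes were enriched in both conditions. The median change over the 243 probes was -0.02. When the background was corrected by normexp instead, 7 of the 243 probes were higher and 14 lower, where 1.71% and 2.83% of all probes were. Enrichment was then called at 1 of them in unstimulated and at 7 in stimulated cells, against 0.607% and 2.42% of all probes.

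Averaged over windows of distance to the start, 14 of 35 windows of these genes fell and 3 rose, where 20.9% of all windows fell and 16.3% rose. Of the 7 windows within 250 bp of the start, 4 fell and none rose (LTBP1, LTBP3, TGFB2 and TGFBI). Of the 7 windows over 250 and up to 800 bp downstream, 5 fell and none rose (LTBP1, LTBP2, LTBP3, TGFB3 and TGFBI). The shares over all windows pool every position, so that these counts have no share for their own position beside them. Whether falls gathered near the start was not tested. The windows that rose lay farther upstream, below -2000 bp in LTBP2 and LTBP3 and in the window from 2000 to over 250 bp upstream in LTBP1. Under normexp, 4 of the 35 windows fell and none rose, where 5.74% of all windows fell and 3.22% rose, and none of the 4 falls within 250 bp of the start was called (limma adjusted p = 0.280 for LTBP1, 0.0669 for LTBP3, 0.0682 for TGFB2 and 0.118 for TGFBI).

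**Figure D1:**
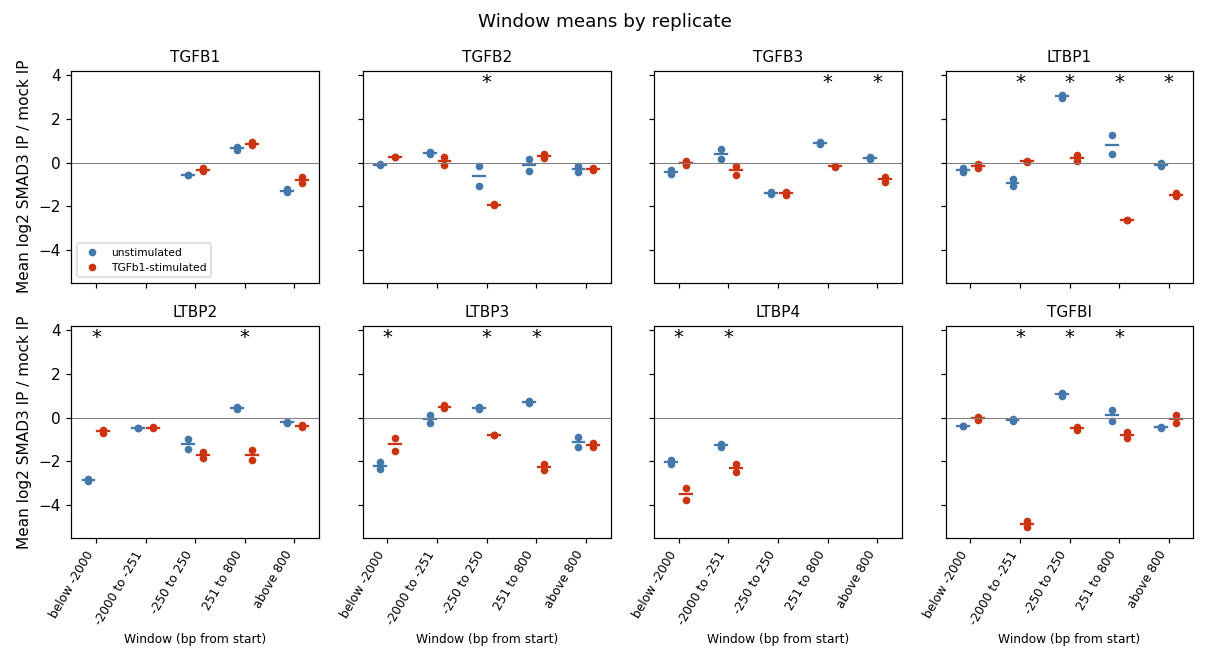
Window means of the log2 ratio of SMAD3 IP over mock IP (vertical axis) for the 8 genes, by distance of the probes from the annotated start. Points are the 2 replicates of each condition, short lines their mean, and an asterisk marks a limma adjusted p under 0.05. Within 250 bp of the start LTBP1 fell from a mean of 3.03 to 0.20 and TGFBI from 1.07 to -0.49, and LTBP2 rose below -2000 bp from -2.86 to -0.63. LTBP4 has 2 windows and TGFB1 3, since the others held too few probes.

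A ratio can change through either IP. At 53 of the 75 changed probes of these genes (70.7%) the mock IP signal moved more than the SMAD3 IP signal, and at 22 the SMAD3 IP signal moved more. The share was 64.1% over the 108454 changed probes of all genes. Tested on its own, the mock channel passed the threshold alone at 34 of the 75 probes, the SMAD3 channel alone at 7, both at 12 and neither at 22. All 9 changed probes of TGFB1, all 7 of TGFBI and all 8 of LTBP4 had the larger movement in the mock channel, and 7 of 10 in LTBP3, 5 of 7 in TGFB3 and 6 of 10 in TGFB2 had it in the SMAD3 channel. Over all probes, 6.83% rose and 7.67% fell in the mock channel, and 2.7% rose and 4.33% fell in the SMAD3 channel.

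**Figure D2:**
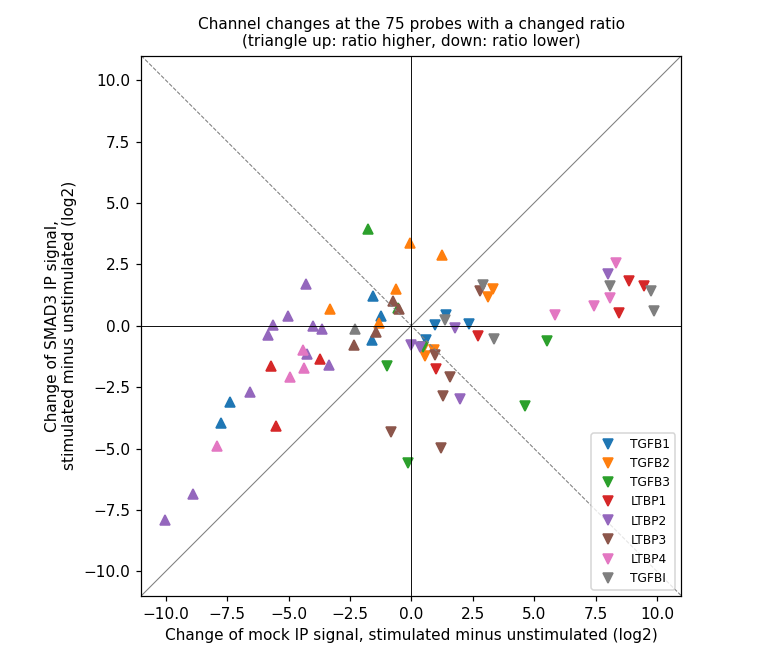
Change of the mock IP signal (horizontal axis) and of the SMAD3 IP signal (vertical axis) at the 75 probes whose ratio changed, stimulated minus unstimulated, in log2 units, with one colour per gene and triangles pointing up or down with the ratio. Above or below both grey diagonals the SMAD3 IP signal moved more, and to their left or right the mock IP signal did. The points far to the right, at mock IP changes of 5.83 to 9.88, belong to LTBP1, LTBP2, LTBP4 and TGFBI.

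TGFB1 encodes the ligand that was added to the cells and that is the main profibrotic isoform. Its 19 probes ran from -407 to 2769 bp, and 15 of them were measured throughout. The gene mean was -1.13 and -1.05 in the unstimulated replicates and -0.59 and -0.36 in the stimulated ones. The gene mean lay below the level of the median probe in both conditions, less so after stimulation. Its change was 0.61 ± 0.11 (SE, n = 2 against 2, limma adjusted p = 0.00303). Over all genes, 20.9% of gene means rose and 28.7% fell, and among these 8 genes 2 rose and 4 fell. Under normexp the change of the TGFB1 mean was not called (0.0733), and 3 of the 8 gene means fell and none rose, where 11.1% of all gene means fell and 6.25% rose.

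The largest TGFB1 rises lay at both ends of the tiled region. At -407 bp the log2 ratio was -5.52 and -5.44 in unstimulated and -1.48 and -1.09 in stimulated cells (change 4.19, limma adjusted p = 0.00324). At 2769 bp it was -5.46 and -5.35, then -1.56 and -1.82 (limma adjusted p = 0.00283). Both probes had far more mock IP than SMAD3 IP DNA in unstimulated cells, and their mock IP signal changed by -7.37 and -7.76 on the log2 scale while the SMAD3 IP signal changed by -3.10 and -3.98. Nearer the start, the probe at -146 bp went from -0.21 and -0.10 to 1.28 and 1.48 (limma adjusted p = 0.00891), and it passed the test for enrichment over mock IP after stimulation but not before. On the other side of the start, at 172 bp, it fell from -0.64 and -0.70 to -1.93 and -1.84 (change -1.21 ± 0.10, limma adjusted p = 0.00910), a call lost under normexp (0.0557), with scale normalization (0.0562) and without unstimulated replicate 1 or 2 or stimulated replicate 1 (0.0622, 0.0614 and 0.0530). Under normexp the changes at -407 and -146 bp were not called (0.112 and 0.519), and that at -146 bp was also lost without unstimulated replicate 1 or 2 (0.0694 and 0.0667).

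Inside TGFB1, at 486 and 668 bp, SMAD3 IP DNA was enriched in both conditions. The ratio at 486 bp was 0.74 and 0.66 before and 1.39 and 1.74 after stimulation, which did not pass the threshold for a change (limma adjusted p = 0.0531), although it did under loess and scale normalization (0.0316 and 0.0379). At 668 bp it was 1.79 and 1.73, then 0.79 and 0.80 (limma adjusted p = 0.0127), a fall that was lost under normexp (0.936) and without any one replicate (0.0652 to 0.0681). At 2102 bp the ratio went from 2.18 and 2.40 to -0.18 and 0.04 (limma adjusted p = 0.00579), and the mock IP signal changed by 2.36 and the SMAD3 IP signal by 0.07. This call was lost under normexp (0.753) and without unstimulated replicate 2 (0.0547). The probe nearest the start, at -47 bp, was slightly below 0, at -0.90 and -0.94 and then -0.54 and -0.43 (limma adjusted p = 0.0823). No window of TGFB1 passed the threshold.

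TGFB2 encodes the isoform known for its part in development and epithelial-mesenchymal transition. Its 46 probes ran from -5269 to 2634 bp, but only 11 were measured throughout and 22 were above background in no channel on any array. The gene mean did not pass the threshold, at 0.05 and -0.16 against -0.02 and -0.15 (change -0.03 ± 0.11, limma adjusted p = 0.857). Single probes moved in opposite directions, with 5 higher and 5 lower (10.9% each). These shares were near those over all probes, 10.5% higher and 12.4% lower.

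The probe with the largest rise at TGFB2 among those measured throughout lay at -2811 bp. The log2 ratio there was 0.81 and 0.87 in unstimulated cells and 4.65 and 4.10 after stimulation (change 3.54 ± 0.24, limma adjusted p = 0.00603). The SMAD3 IP signal rose from 3.87 and 4.95 to 7.61 and 7.94, in log2 units above the array median, while the mock IP signal was 2.87 and 3.96 before and 2.95 and 3.75 after. The SMAD3 channel passed the test for a change and the mock channel did not (limma adjusted p = 0.0303 and 0.966). None of the other probes between -5269 and -1414 bp was enriched in either condition. The call held under normexp and was lost without unstimulated replicate 1 or 2 (0.0680 and 0.0685).

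Closer to the TGFB2 start, the pair at -638 and -530 bp was enriched in both conditions. At -638 bp the ratio was 2.88 and 3.66, then 2.60 and 2.42, without a called change (limma adjusted p = 0.276). At -530 bp it went from 1.04 and 0.77 to 2.61 and 2.73 (limma adjusted p = 0.00916), and the SMAD3 IP signal rose by 2.88 (0.0282). The mean of the 3 probes from -638 to -409 bp was 1.52 and 1.72 unstimulated and 1.61 and 1.43 stimulated, and it was the highest run of 3 of the gene in both conditions. The call at -530 bp was lost without unstimulated replicate 2, stimulated replicate 1 or stimulated replicate 2 (0.0540, 0.0599 and 0.0646).

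On the other side of the start, the TGFB2 probe at 487 bp rose from 0.65 and 0.20 to 2.79 and 2.53 (limma adjusted p = 0.0130), whereas that at 331 bp fell from -0.14 and 0.33 to -1.53 and -1.98 (0.0287). Both calls were lost under normexp (0.101 and 0.132) and without any one replicate (0.0544 to 0.0805 at 487 bp and 0.0854 to 0.128 at 331 bp). At -77 bp, the probe nearest the start, the unstimulated replicates were far apart, at -0.36 and -2.78, and the stimulated ones were at -4.70 and -4.81 (limma adjusted p = 0.134). The window within 250 bp fell by 1.29 ± 0.33 (limma adjusted p = 0.0410), and this call was lost without stimulated replicate 1 or 2 (0.165 and 0.170) and under normexp (0.0682).

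TGFB3 encodes the third isoform, best known from palate and lung development. Of its 30 probes, 13 upstream ones lie between its start and that of C14orf179, which is transcribed in the other direction, and cannot be assigned to either gene. The gene mean went from 0.07 and -0.04 to -0.68 and -0.46 (change -0.58 ± 0.11, limma adjusted p = 0.00387), which was not called under normexp (0.0844). Before stimulation TGFB3 had the most runs of 3 neighbouring probes enriched past 1.5-fold in both replicates among the 8 genes, 6 of 26, and after stimulation it had none. Runs overlap, and each of these 6 held either the probe at 256 bp or the one at 2003 bp. Over all genes, 9.14% of runs were enriched in unstimulated and 7.58% in stimulated cells.

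The largest loss of SMAD3 IP signal at TGFB3 was 256 bp downstream of the start. The log2 ratio was 4.77 and 4.44 in unstimulated cells and -0.67 and -1.18 after stimulation (change -5.54 ± 0.26, limma adjusted p = 0.00349). The SMAD3 IP signal fell from 7.43 and 7.66 to 2.23 and 1.67 (0.00363), and the mock IP signal was 2.09 and 2.53, then 2.33 and 2.03. The opposite was measured at 2637 bp, where the ratio rose from -2.88 and -2.90 to 2.94 and 2.48 (limma adjusted p = 0.00261) and the SMAD3 IP signal from 2.90 and 3.01 to 6.86 and 6.90 (0.00394). Both calls on the ratio were lost under normexp (limma adjusted p = 0.688 and 0.387).

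Between these sites, SMAD3 IP DNA exceeded mock IP DNA at 2003 bp of TGFB3 in both conditions, at 3.73 and 3.91 before and 2.36 and 2.46 after stimulation. Its neighbour at 1843 bp was enriched before stimulation, at 2.58 and 2.48, and depleted after it, at -6.25 and -4.57 (change -7.93 ± 0.67, limma adjusted p = 0.00913). The mock IP signal there changed by 4.61 (0.000626) and the SMAD3 IP signal by -3.25 (0.102). The call on the ratio was lost without unstimulated replicate 1 or 2 (0.0892 and 0.0890) and under normexp (0.0843). The probe nearest the start, at 19 bp, was at -0.37 and -0.27 and then at -0.04 and -0.57 (limma adjusted p = 0.987). At -980 bp, in the region shared with C14orf179, the ratio was 1.41 and 0.93 and then 1.08 and 1.08, enriched in both conditions and with no called change (0.847).

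**Figure D3:**
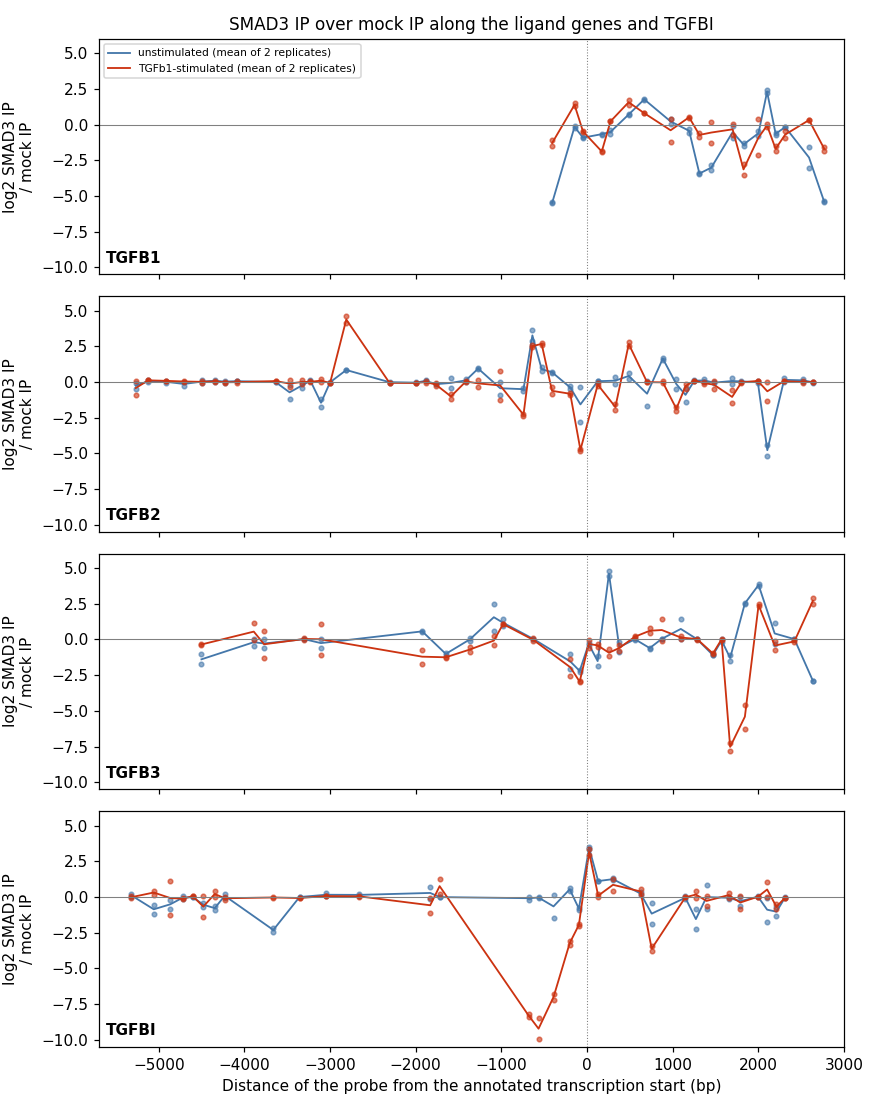
Log2 ratio of SMAD3 IP over mock IP (vertical axis) along TGFB1, TGFB2, TGFB3 and TGFBI, against the distance of each probe from the annotated start in bp. Points are single replicates, lines the means of 2 replicates, blue for unstimulated and red for TGFβ1-stimulated cells. TGFB2 shows a stimulated peak of 4.65 and 4.10 at -2811 bp, TGFB3 an unstimulated one of 4.77 and 4.44 at 256 bp, and TGFBI a peak in both conditions at 24 bp beside a stimulated trough reaching -9.97.

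LTBP1 encodes the best-studied latent TGFβ binding protein. Of its 33 probes 9 were measured throughout. The highest ratio among the probes of the 8 genes was 172 bp downstream of its start, at 5.34 and 5.36 in unstimulated cells, and it fell to 2.44 and 2.23 after stimulation (change -3.01 ± 0.13, limma adjusted p = 0.00305). The SMAD3 IP signal there was 7.52 and 8.40 and then 7.42 and 7.66 (0.698), while the mock IP signal rose from 1.99 and 2.92 to 4.97 and 5.35 (0.0152). The site was enriched in both conditions, and the fall was not called under normexp (-0.33, limma adjusted p = 0.912) or with scale normalization between arrays (-1.34, 0.427).

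Around it, the probe at -134 bp, the nearest to the LTBP1 start, went from 0.84 and 0.58 to -1.76 and -2.09 (change -2.64 ± 0.19, limma adjusted p = 0.00697), a call lost without unstimulated replicate 1 or 2 (0.0622 and 0.0591). The probe at 413 bp was enriched in both conditions, at 1.05 and 1.49 and then 1.19 and 1.41. The mean of the window within 250 bp went from 3.09 and 2.97 to 0.34 and 0.07 (limma adjusted p = 0.000874).

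Farther downstream, 3 consecutive LTBP1 probes from 704 to 1042 bp dropped to between -8.71 and -6.42 after stimulation. Their mock IP signal was then higher by 8.44 to 9.46, and their SMAD3 IP signal by 0.50 to 1.81, the latter called at 1. At 1042 bp the mock IP signal was 1.90 and 1.01 before and 9.82 and 9.97 after stimulation (0.000247), and the SMAD3 IP signal was 2.07 and 0.30, then 1.66 and 1.72 (change of the ratio -7.83 ± 0.34, limma adjusted p = 0.00319). At 857 bp the mock IP signal was not well above background on either unstimulated array, and it was at least 702.-fold higher after stimulation, counted from the lowest signal well above background or the probe's own where that was higher. The call at 704 bp was lost without stimulated replicate 1 or 2 (0.116 and 0.123).

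The reverse was seen upstream of LTBP1. From -1179 to -851 bp, 3 probes rose from between -4.73 and -1.35 to about 0 or above. Their mock IP signal changed by -5.70 to -3.72 and their SMAD3 IP signal by -4.10 to -1.35, the latter called at 1. At -851 bp, the one of them measured throughout, the ratio went from -1.84 and -1.93 to 0.54 and 0.65 (limma adjusted p = 0.00328). At -1179 and -1013 bp the mock IP signal was at least 44.5-fold and 51.9-fold lower after stimulation, when it was not well above background on either array. The SMAD3 IP signal at -1179 bp was likewise at least 17.1-fold lower and not well above background after stimulation. The gene mean fell by 0.55 ± 0.09 (limma adjusted p = 0.00269), and by 0.39 (0.0730) over the probes from -2000 to 800 bp, which did not pass the threshold.

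LTBP2 encodes a protein of elastic fibre microfibrils. Of its 39 probes 17 were measured throughout, and 5 lay more than 100 kb downstream of the start. Its gene mean rose from -1.39 and -1.41 to -0.67 and -0.69 (change 0.72 ± 0.09, limma adjusted p = 0.000523). In the far upstream region, 8 consecutive probes from -4273 to -2474 bp lay between -6.97 and -3.39 in unstimulated cells and between -2.92 and 0.24 after stimulation. Their mock IP signal changed by -6.55 to -3.35 and was called at 7 of 8 probes, and their SMAD3 IP signal changed by -2.69 to 1.72 and was called at 1. None of these 8 probes was measured throughout. The rise of the gene mean was not called under normexp (0.15, 0.348), and over the probes from -2000 to 800 bp the mean changed in the other direction, by -0.82 (limma adjusted p = 0.00170).

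Within the LTBP2 gene the called changes went both ways. At 506 bp the ratio fell from 0.39 and 0.05 to -6.10 and -5.43 (change -5.98 ± 0.31, limma adjusted p = 0.00404) with a mock IP signal higher by 8.01. At 1676 bp it fell from 0.94 and 1.03 to -4.02 and -4.06 (limma adjusted p = 0.00203), where the SMAD3 IP signal changed by -2.99 and the mock IP signal by 1.97. At 914 bp it rose from -3.83 and -3.48 to -0.58 and -0.70 (limma adjusted p = 0.00474) as the mock IP signal fell by 4.23. The SMAD3 IP signal at 914 and 1059 bp changed by -6.86 to -1.15 and was called at 1 of these 2 probes. The calls at 1676 and 914 bp were lost under normexp (0.164 and 0.0555), and that at 506 bp without unstimulated replicate 1 or 2 (0.0521 and 0.0522).

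Between these LTBP2 probes the one at 1554 bp was enriched in both conditions, at 2.64 and 2.78 and then 1.60 and 2.04 (limma adjusted p of the change = 0.0764). The probe nearest the start, at 82 bp, was below 0 in all replicates, at -4.13 and -3.42 and then -3.77 and -3.14 (limma adjusted p = 0.703).

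LTBP3 encodes a binding protein of the same family that carries latent TGFβ. It had 31 probes, 17 measured throughout, of which the 8 farthest upstream lie between its start and that of SSSCA1 and cannot be assigned to either gene. Its gene mean did not pass the threshold (-0.83 and -0.96 against -0.94 and -1.13, limma adjusted p = 0.312). Changes along the gene were opposite. The window within 250 bp and the one from there to 800 bp fell by 1.22 and by 2.97 (limma adjusted p = 0.00309 and 0.000824). The window below -2000 bp rose by 0.97 (limma adjusted p = 0.0475). None of its 11 probes was called higher by itself, and 2 were measured throughout. At -2112 and -5627 bp in this window the SMAD3 IP signal was at least 356-fold and 191-fold lower after stimulation. It was then not well above background on either array. Over the probes from -2000 to 800 bp the gene mean fell by 1.08 (limma adjusted p = 0.000392). The rise below -2000 bp was lost under normexp (0.0697) and without unstimulated replicate 1 or 2 or stimulated replicate 1 (0.102, 0.180 and 0.123), and both falls were lost under normexp (0.0669 and 0.185).

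At LTBP3 the falls at -85, 414, 530 and 638 bp came with a called fall of the SMAD3 IP signal. At 638 bp the log2 ratio was 3.61 and 3.89 in unstimulated cells and -2.59 and -2.36 after stimulation (change -6.22 ± 0.17, limma adjusted p = 0.00210). The SMAD3 IP signal fell from 7.39 and 7.81 to 2.26 and 3.02 (limma adjusted p = 0.00744), and the mock IP signal was 3.22 and 3.24, then 4.27 and 4.57 (0.0856). The neighbours at 530 and 414 bp fell from 0.55 and 0.51 and from -0.01 and 0.32 to between -4.01 and -3.39, and their SMAD3 IP signal changed by -2.86 and -2.08. All 4 probes from 414 to 756 bp fell, which was the longest stretch of consecutive falling probes in the latent binding protein genes. Under normexp none of the 4 falls was called (0.159, 0.166, 0.645 and 0.544 from 414 to 756 bp).

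On the other side of the LTBP3 start, the probe nearest to it, at -85 bp, went from 2.12 and 2.03 to -1.55 and -1.46 (change -3.58 ± 0.11, limma adjusted p = 0.00223). Both channels were bright at this probe: the SMAD3 IP signal fell from 10.40 and 10.38 to 5.65 and 6.47 (limma adjusted p = 0.00930), and the mock IP signal went from 7.71 and 7.66 to 6.63 and 7.11 (0.263). The fall at -85 bp was also called under normexp (-3.19, 0.0141) and without any one replicate (0.0270 to 0.0352).

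Farther upstream of LTBP3, 3 consecutive probes from -715 to -191 bp rose by 1.1 to 1.49, and at -715 and -499 bp SMAD3 IP DNA exceeded mock IP DNA by the test after stimulation and not before. These 3 rises were lost under normexp (0.764, 0.738 and 0.693) and without any one replicate (0.0561 to 0.0633 at -715 bp). At -1066 bp the ratio was 1.59 and 1.68 before and 1.74 and 1.86 after stimulation, enriched in both conditions without a called change (limma adjusted p = 0.522). The largest rise among the LTBP3 probes measured throughout was at 2073 bp, from -1.81 and -1.95 to -0.18 and -0.19 (limma adjusted p = 0.00573), and it was not called under normexp (0.26, 0.718).

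LTBP4 encodes a binding protein for latent TGFβ1 that also takes part in elastic fibre assembly. It had 12 probes, the fewest of the 8 genes, and 4 were measured throughout. The array annotates 4 of them to a first start and 8 to a second start 4069 bp farther downstream, and distances are given as annotated. No probe of LTBP4 was enriched in SMAD3 IP DNA in either condition, and 8 of 12 in unstimulated and 6 of 12 in stimulated cells had more mock IP DNA by the test, against 17.4% and 18.5% of all probes. The gene mean went from -1.46 and -1.48 to -2.41 and -2.95 (change -1.20 ± 0.17, limma adjusted p = 0.00105), the largest change of a gene mean among the 8 genes.

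From -2414 to -1927 bp, 3 consecutive LTBP4 probes fell to between -9.16 and -6.24 after stimulation. Their mock IP signal was then higher by 7.42 to 8.35, and their SMAD3 IP signal by 0.79 to 2.56, the latter called at 1. At -2414 bp the ratio was 0.44 and 0.08 before and -6.24 and -6.65 after (change -6.71 ± 0.24, limma adjusted p = 0.00256). The probes on either side moved the other way, and at -2595 bp the ratio rose from -3.63 and -3.36 to -0.66 and -1.16 as the mock IP signal fell by 4.38 (limma adjusted p of the ratio = 0.0111). That rise was not called under normexp (0.745) or without unstimulated replicate 1 or 2 (0.0886 and 0.0810). The probe nearest to a start, at -10 bp, was at 0.08 and 0.08 unstimulated and at 0.05 and -1.60 stimulated (limma adjusted p = 0.567), and without stimulated replicate 1 its change was -1.68 (0.0369).

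**Figure D4:**
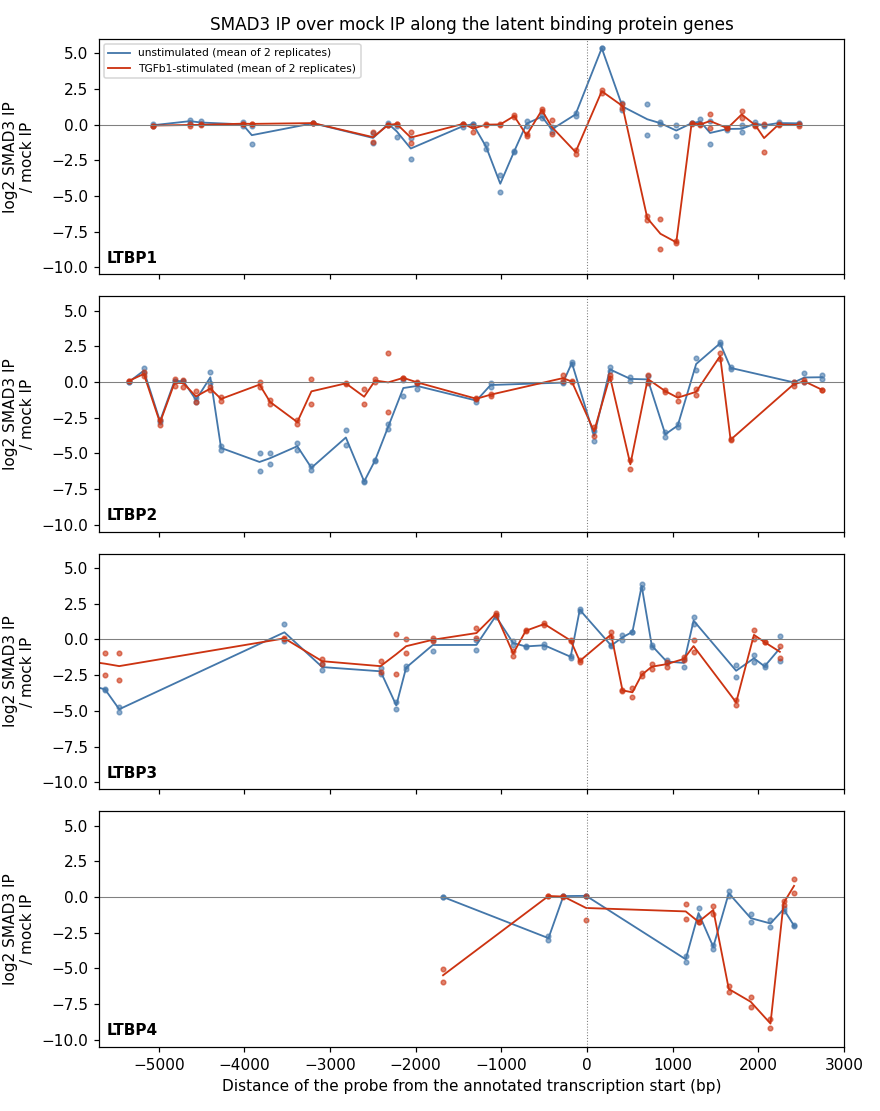
Log2 ratio of SMAD3 IP over mock IP (vertical axis) along LTBP1, LTBP2, LTBP3 and LTBP4, against the distance of each probe from the annotated start in bp. Points are single replicates, lines the means of 2 replicates, blue for unstimulated and red for TGFβ1-stimulated cells. LTBP1 peaks at 172 bp in both conditions, at 5.34 and 5.36 and then 2.44 and 2.23, LTBP2 has an unstimulated trough from -4273 to -2474 bp, and LTBP3 loses its unstimulated peak at 638 bp. For LTBP4 all distances are from the first start, and the 5 LTBP2 probes over 100 kb downstream and the 4 farthest upstream LTBP3 probes are not drawn.

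TGFBI had 33 tested probes, 9 measured throughout. The probe nearest its start, at 24 bp, was enriched in both conditions, at 3.53 and 3.35 and then 3.33 and 2.93 (change -0.31 ± 0.20, limma adjusted p = 0.473). Both channels were bright there, with a SMAD3 IP signal of 9.12 and 9.86 and then 10.36 and 10.42, and a mock IP signal of 5.39 and 6.38 and then 7.02 and 7.42. Neither channel passed the threshold for a change (limma adjusted p = 0.302 and 0.158). At 130 bp, enrichment was measured in unstimulated cells, at 1.12 and 1.1, and the ratio was near 0 after stimulation, at -0.02 and 0.19 (limma adjusted p = 0.0189). That fall was lost without any one replicate (0.0530 to 0.107) and had the opposite sign under normexp (0.05, 0.921).

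Immediately upstream, all 5 TGFBI probes from -683 to -95 bp fell, and the mock IP signal rose at each of them, by 2.93 to 9.88. Their SMAD3 IP signal changed by -0.52 to 1.68 and was not called at any of them. At -566 bp the ratio was -0.10 and 0.02 before and -8.48 and -9.97 after stimulation. The mock IP signal there was well above background on both stimulated arrays, at 9.22 and 9.82, and on neither unstimulated array, so that it was at least 941.-fold higher after stimulation, and the SMAD3 IP signal was well above background on 1 stimulated array only. At -202 bp, which was measured throughout, the ratio fell from 0.66 and 0.41 to -3.07 and -3.39 (change -3.76 ± 0.19, limma adjusted p = 0.00381) with a mock IP signal higher by 3.36. The fall at -95 bp, from -0.76 and -0.88 to -1.89 and -2.03 (0.0141), was lost without any one replicate (0.0600 to 0.0809).

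The TGFBI window from 2000 to over 250 bp upstream fell by 4.77 (limma adjusted p = 0.000450), although none of its 5 probes was measured throughout. No probe of TGFBI measured throughout was called higher. The gene mean fell by 0.77 ± 0.10 (limma adjusted p = 0.000804). When only the probes with at least 1 signal well above background were kept it fell by 0.36, without a call (0.138).

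The median over the probes of each gene gave no called change for any of the 8 genes, and it was called lower at 1.79% and higher at 1.1% of all genes. With probes from -2000 to 800 bp, 5 of the 8 gene means fell and 1 rose, where 27.6% of all gene means fell and 20.4% rose. The LTBP2 mean was 0.72 over all its probes and -0.82 in this range. Where 2 neighbouring probes at most 300 bp apart were both called, 25 of 30 pairs had changed in the same direction (83.3%, against 73.9% of 35828 such pairs in all genes).

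**Figure D5:**
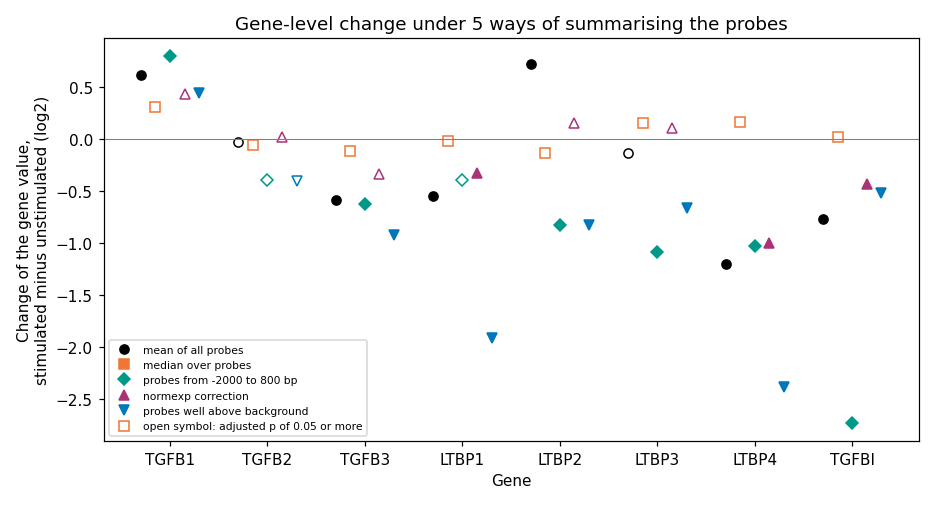
Change of the gene value (vertical axis), stimulated minus unstimulated, in log2 units, for the 8 genes (horizontal axis) under 5 ways of summarising or correcting the probes. Filled symbols have a limma adjusted p under 0.05 and open symbols do not. LTBP2 is at 0.72 over all probes and at -0.82 from -2000 to 800 bp, and all medians over probes are open symbols.

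The genes that act on these proteins were read from a list of 36 receptors, SMADs, activators, matrix partners and binding proteins, 34 of which had a value. Of these, 9 gene means rose, 12 fell and 13 did not pass the threshold, with a median change of -0.01, beside 20.9% and 28.7% of all genes. Among the receptors, ENG, the coreceptor endoglin, fell by 0.86, TGFBR1, the type I receptor kinase, fell by 0.36, and ACVRL1, another type I receptor, fell by 0.33 (limma adjusted p = 0.000351, 0.0238 and 0.0384). Among the SMADs, the inhibitory SMAD7 fell by 0.60 and SMAD6 fell by 0.44, while SMAD2 rose by 0.29 and SMAD4 by 0.29. The study reported stronger SMAD3 binding at SMAD6 and SMAD7 after TGFβ1, by fitted peak height and not by a mean over all probes. For all genes of the list, the single channels and the other settings are not given. A change of their mean ratio may thus come from either IP.

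Of 13 activators, 4 rose and 3 fell. MMP9, a gelatinase that can release latent TGFβ, had the largest change of the list, from a mean of -1.43 to 1.14 (limma adjusted p = 8.45e-06). ITGB6, a subunit of the integrin that activates latent TGFβ1 in epithelium, rose by 0.64. BMP1, a protease that can cleave LTBP1, fell by 0.72, and FURIN fell by 0.49. Of the 5 matrix partners, FN1 (fibronectin) rose by 0.41 and EMILIN1 by 0.34, and the fibrillin genes FBN2 and FBN1 fell by 0.58 and fell by 0.28. Of the 5 traps and antagonists, FMOD fell by 0.91, LEFTY2 fell by 0.78, and DCN rose by 0.37. Neither LRRC32 nor LRRC33, which tether latent TGFβ to cell surfaces, passed the threshold.

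By the Euclidean distance of gene means over the 4 replicates, the 3 genes of the list most like TGFB1 were PLAU (0.43), EMILIN1 (0.57) and MMP2 (0.64). PLAU went from -0.83 to -0.38 and EMILIN1 from -0.75 to -0.42. The mean of MMP2 was -0.76 before and -0.72 after stimulation, a difference that did not pass the threshold.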

How the data were processed

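The deposited files hold scanner output of Agilent promoter arrays (Agilent Feature Extraction 9.5.1.1, per the submitters' processing notes). The authors deposited one intensity per spot and channel, from which the software had subtracted background and which it had detrended and scaled linearly for each dye. They also deposited a matrix of log2 ratios, whose largest absolute difference from the intensities was 3.13e-06. Direction follows the labelled dyes, with SMAD3 IP in Cy5 over mock IP in Cy3. One label names a control IgG for the mock IP and others anti-FLAG.

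Control spots and 1404 outlier probes were left out, log2 ratios were centred on each array's median, and the slide pair of a replicate was joined. Probes, means per gene (at least 4 probes) and means per window (at least 2 probes) were tested with limma 3.58.1 (lmFit, eBayes, Benjamini-Hochberg over all features, threshold 0.05). Windows used the annotated distance, and runs of 3 probes within 1000 bp followed chromosomal order and had no test. Single channels were centred on the array median and tested in the same way. The tests were also run on simulated data with independent normal noise for each feature. In the arrays neighbouring probes are linked and many signals are near background. The simulation thus gives no rate of false calls for them. With 2 replicates per condition, the number of arrays limits the precision.

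Named probes were, for each gene, the one nearest the start and the largest rise and fall among called probes measured throughout. Other probes described in the text were chosen after their values were seen. Pathway genes were named where their mean passed the threshold, at most 4 per group. Members and lists were chosen with earlier results of these data known. Alternatives comprised normexp (offset 50), loess, scale normalization, the matrix values, filters on dim and outlier probes, a replicate block, separate slides, leaving out each replicate, the median over probes, probes from -2000 to 800 bp and windows of at least 3 probes. The stricter filter on dim probes, which needs both signals above background, was chosen after seeing the data. Software was R 4.3.3 and Python 3.11.15.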

Additional observations from a re-analysis of the deposited data

How the results depend on the processing

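The series matrix values, outlier probes kept and a separate fit for each slide left all 8 counts within 1.5 times, and so did scale normalization and the filter that needs 1 signal above background. With normexp, higher and lower probes were 7 and 14 (of 35 and 40), higher gene means 0 (of 2), higher and lower windows 0 and 4 (of 3 and 14), and probes with more SMAD3 IP DNA 1 unstimulated and 7 stimulated (of 27 and 19). With loess these last 2 counts were 42 and 36, where 12.4% of all probes were enriched in each condition. Higher gene means were 1 with the filter that needs both signals above background and 1 with probes from -2000 to 800 bp, and the median over probes gave 0 higher and 0 lower (of 4). Without each replicate in turn, higher probes were 16 to 23 (4.83% to 6.12% of all probes), lower probes 16 to 27 (4.23% to 8.54%), higher windows 1 to 2 (9.98% to 11.6% of all windows), and enriched unstimulated probes 14 to 21 (4.08% to 7.74% of all probes), so that calls fell over the whole array too. There, the lone array of a condition is assumed to vary like the others. The cause of these differences was not tested.

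Replicate numbers did not pair the samples (r = 0.00882 on slide 1 and 0.0235 on slide 2 between the replicate differences of both conditions). With the replicate block, 29 probes were higher and 30 lower (8.55% and 10.0% of all probes), 2 gene means were higher and 4 lower (24.1% and 32.5% of all genes), and 3 windows were higher and 13 lower (15.9% and 20.4% of all windows).

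Signs that turned were those of the TGFB2 gene mean (0.0185 with normexp, 0.017 with loess, -0.133 to 0.0799 without each replicate in turn) and of the medians of TGFBI (0.0146), LTBP2 (-0.137), LTBP3 (0.159) and LTBP4 (0.166). The LTBP3 mean was 0.104 with normexp. The LTBP2 mean was -0.833 with the filter that needs both signals above background and -0.825 from -2000 to 800 bp, and its window below -2000 bp was -0.22 with that filter. Among probes without a called change, signs turned at -638 bp of TGFB2 (0.736 with normexp, 0.495 with scale normalization), at -980 bp of TGFB3 (0.0732 with normexp, 0.0281 with loess, -0.331 to 0.143 without each replicate), at 19 bp of TGFB3 (-0.029 with normexp, -0.256 to 0.273 without each replicate), at 24 bp of TGFBI (0.405 with normexp and 1.23 with scale normalization), at 413 bp of LTBP1 (-0.187 to 0.255 without each replicate) and at 82 bp of LTBP2 (-0.031 to 0.674). The called fall at 130 bp of TGFBI was 0.0541 with normexp. Of 232 values for the 17 called windows, 199 kept call and direction and 32 lost the call. All arrays were scanned on 1 day, so that a block for the scan day was not run.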
